A study of Mus musculus with 2 samples.

Results

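Cyclic AMP (cAMP) signalling was examined through 10 genes in sorted mouse CD4+ T cells. They comprised 5 cAMP phosphodiesterase genes (Pde3b, Pde4a, Pde4b, Pde4d and Pde7a), the adenylate cyclase gene Adcy7, the protein kinase A subunit genes Prkar1a and Prkacb, and the cAMP-responsive factor genes Crem and Creb1. The genes were listed by function, with earlier results of these data known. Every probe set of the array annotated to exactly 1 of their symbols was taken, which gave 36 probe sets for 10 of the 18193 genes measured. The cells came from the DEREG strain, whose transgene places a fusion of the diphtheria toxin receptor and green fluorescent protein (GFP) under control of the Foxp3 promoter, so that GFP marks regulatory T cells. The first array was made from sorted CD4+ GFP+ FoxP3+ cells and the second from CD4+ GFPneg FoxP3neg cells. Both sorts came from this strain, so both carried the transgene, and the sources used here do not state the organ, the treatment, or the age, number or pooling of the mice. With 1 array per group there are no replicates: every difference below is between these arrays, with no test, no p-value and no replicate error.

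cAMP is made from ATP by adenylate cyclases, which receptors switch on or off through G proteins, and it is broken down by phosphodiesterases. It releases the catalytic subunits of protein kinase A from their regulatory subunits, and the kinase phosphorylates CREB family factors that bind cAMP response elements in promoters. In T cells a rise in cAMP restrains signalling from the antigen receptor. Regulatory T cells are known for a high cAMP content and for low Pde3b, and the comparison asks how the genes that make, degrade and read cAMP differ between the GFP-positive and the GFP-negative cells.

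The values are MAS5 signals, linear intensities in arbitrary units that can be compared between arrays for 1 probe set but not between probe sets. Signals up to 65.59, the 90th percentile of genes restricted to other tissues, were treated as background and raised to that floor before log2 was taken. Differences are log2 signals of GFP-positive cells minus those of GFP-negative cells, and "at least" marks a fold with 1 of its signals under the floor. A gene is represented by its brightest probe set unless another is named. A gene or probe set counted as called when it differed at least 2-fold.

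The sort and the cell type were visible in the signals. Foxp3, the factor whose promoter drives GFP, had signals of 504 and 173 in GFP-positive and GFP-negative cells, a 2.91-fold difference. The other regulatory T cell markers were also higher in GFP-positive cells: Il2ra (618 and 362), Ctla4 (2420 and 1244), Tnfrsf18 (1394 and 506) and Ikzf2 (4435 and 2250). All 5 markers thus exceeded the floor in GFP-negative cells too. Whether regulatory T cells remained in that sort was not tested. All 6 CD4 T cell markers (Cd4, Cd3d, Cd3e, Cd3g, Cd5 and Cd28) exceeded the floor. Of these, 5 were lower in GFP-positive cells, with a list median of −0.39 log2, and Cd4 itself had signals of 256.5 and 415. Of 6 measured B cell markers, 3 were above the floor and Cd79a, Ms4a1 and Pax5 were below it on both arrays, with summed brightest signals of 2291 (GFP-positive) and 4576.5 (GFP-negative). Most of both sums came from Ighm (1881 and 4139), for which, of 6 less bright probe sets above the floor on both arrays, 4 were higher and 2 lower in GFP-positive cells. Of the other B cell markers above the floor, Cd22 was lower (98.3 and 235) and Cd79b 3.13-fold higher (222 and 70.8). Few markers of other blood cells passed the floor: 2 of 9 of myeloid cells (Adgre1, 94.3 and 79.1, and Csf1r, 83.9 and 43.5), 2 of 5 of CD8 T and NK cells (Cd8b1, 100.4 and 115, and Klrd1, 148.5 and 103.5) and 1 of 5 of erythroid cells and platelets (Pf4, 20.2 and 75.6). The summed signals of these lists, 327 and 357, 347 and 329, and 71.9 and 154.0, include the signals under the floor. The ratio of 3′ to 5′ signal, which is higher in degraded or incompletely copied RNA, was 5.30 and 3.57 for Actb and 9.27 and 6.24 for Gapdh in GFP-positive and GFP-negative cells. The part of the B cell markers, the CD4 T cell markers and RNA integrity in the results below was not tested. In bulk samples, fewer cells of a type and less RNA per cell cannot be told apart.

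Because the members include factors that act at cAMP response elements, the promoters of the members were searched for this element. The directions of the members were known before the search, and a link between them and the element was not tested. RefSeq promoter sequences of build GRCm38.p6, each 250 bases before to 50 after a transcript start, were found for 7 of the 10 members, in 21 windows. None was found for Pde3b, Pde7a and Crem. The palindromic element TGACGTCA was present in 2 overlapping windows of 1 member, Prkar1a, against 1.79% of all 32851 promoter windows. Its core TGACG, searched on both strands and contained in the full element, was present in windows of 5 of 7 members, Prkar1a, Prkacb, Pde4a, Pde4b and Adcy7, against 23.0% of 27025 genes. Members with several windows had more chances of a match, and per window the core was found in 7 of 21 for the members and in 20.8% of all windows. The 2 overlapping Prkar1a windows hold the same matches and are both counted in the 7. For each member 1 matched stretch follows on the strand of the gene, 5′ to 3′, with the matched letters in capitals. A capital CGTCA is the core on the opposite strand.
Prkar1a, chr11:109650889-109650918, + strand: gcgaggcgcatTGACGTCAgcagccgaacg
Prkacb, chr3:146813031-146813060, − strand: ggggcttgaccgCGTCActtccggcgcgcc
Pde4a, chr9:21184039-21184068, + strand: ggcacagctcgaCGTCAggctggggaggag
Pde4b, chr4:102421509-102421538, + strand: gatttggctgcaCGTCAattttctcatctg
Adcy7, chr8:88282952-88282981, + strand: tgatcatagagcCGTCAggggggtggggct

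The Prkar1a element begins 49 bases before the start at position 109650949 of chromosome 11 and 38 bases after another listed start of the same gene. Both of these windows hold a further TGACG upstream of the full element, and another window of Prkar1a holds a core match that begins 151 bases before its start at position 109649363. The core matches begin 102 bases before the start in Prkacb, 50 in Pde4a, 34 in Pde4b and 28 in Adcy7, each for 1 of several starts of the gene. A match describes the letters only, and no match says only that the letters are not in the window. For comparison, the 250 bases before the first start of Prkacb hold 1 core match, and those before the listed start of Pde4d hold none.
Prkacb, chr3:146812947-146813196, − strand: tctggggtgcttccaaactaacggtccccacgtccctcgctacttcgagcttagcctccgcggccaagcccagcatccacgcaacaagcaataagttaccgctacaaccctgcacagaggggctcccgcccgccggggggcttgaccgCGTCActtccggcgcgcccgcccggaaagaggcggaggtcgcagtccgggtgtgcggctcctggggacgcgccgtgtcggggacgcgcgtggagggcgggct
Pde4d, chr13:108653927-108654176, + strand: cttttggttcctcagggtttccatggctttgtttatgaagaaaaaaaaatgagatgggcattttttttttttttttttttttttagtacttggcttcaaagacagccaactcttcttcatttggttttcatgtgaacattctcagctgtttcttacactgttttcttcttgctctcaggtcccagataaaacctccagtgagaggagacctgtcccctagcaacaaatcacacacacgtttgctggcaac

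Most members, which were chosen with earlier results of these data known, had lower signals in GFP-positive cells. Of the 10 members, 9 were above the floor, and 7 of these were lower in GFP-positive cells and 2 higher, whereas 51.4% of the 10022 genes above the floor were lower. The 7 lower members were the 4 measured phosphodiesterase genes, the cyclase gene and both protein kinase A subunit genes, by 1.19-fold to 1.56-fold. The 2 higher members were the factor genes Crem and Creb1, of which Creb1 turned lower when all its probe sets were averaged. The median over the 9 members was −0.32 log2, against −0.01 over all genes, whose quartiles were −0.26 and 0.24. With all probe sets of a gene averaged, those under the floor included, the member median was −0.12, and Pde4d, Pde7a, Prkacb and Prkar1a differed by −0.30, −0.12, −0.12 and −0.03 log2. No member was past 2-fold, where 3.27% of all genes were. At 1.5-fold, a limit added after the values were seen, 2 of 9 members were past it, against 16.1% of all genes in either direction. Both were lower, as were 7.65% of all genes by that much.

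**Figure D1:**
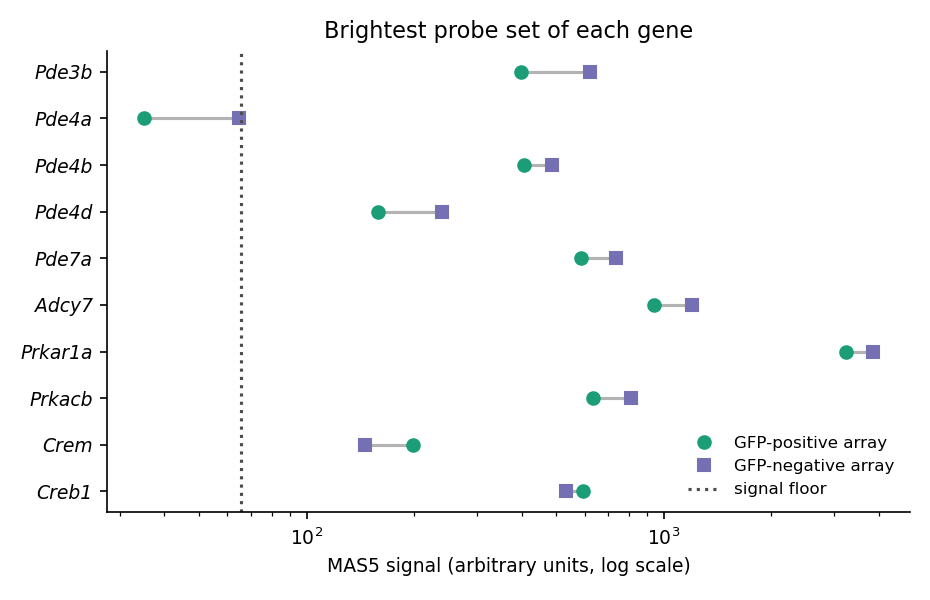
MAS5 signal (arbitrary units, log axis) of the brightest probe set of each of the 10 genes on the GFP-positive (circle) and GFP-negative (square) array, with the signal floor of 65.59 as a dotted line. The circle lies left of the square for the phosphodiesterase, cyclase and kinase genes and right of it for Crem and Creb1 (Creb1 turns with averaged probe sets), both Pde4a signals lie under the floor, and positions cannot be compared between genes.

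As there was no replicate, the scatter between probe sets of the same gene served as a rough yardstick of spread. Over 7877 probe sets from 3108 genes, all detected on both arrays, the log2 difference of a probe set had a standard deviation of 0.39 around its gene's mean. It was 0.45 for mean signals up to 200, 0.39 between 200 and 500 and 0.30 above 500. This spread holds no variation between mice, sorts or hybridisations. It can also take in differences between the transcripts that the probe sets match, so it is not a purely technical error. Of the 9 members, 5 (Pde3b, Pde4d, Pde7a, Adcy7 and Prkacb) differed by more than 1 such standard deviation at their own signal, with Pde3b the farthest at 1.66, and 4 did not. The same was true of 31.6% of the 8075 genes detected on both arrays.

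Phosphodiesterases end the cAMP signal. Pde3b, whose product is inhibited by cGMP and is known as a gene that Foxp3 represses, had signals of 399 and 620 in GFP-positive and GFP-negative cells, respectively, on its only probe set, 1433694_at. It was 1.56-fold lower in GFP-positive cells, or −0.64 log2, and 6.07% of the 8075 genes detected on both arrays were at least as low. Pde4d, of the cAMP-specific family 4 that rolipram inhibits, had signals of 159 and 239 and was 1.51-fold lower (−0.59 log2), and 7.18% of those genes were at least as low. Its second probe set was under the floor on both arrays (7.8 and 17.8). These were the members with the largest differences of brightest probe sets.

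Pde4b, the family 4 enzyme induced and recruited during antigen receptor signalling, was lower on all 3 of its probe sets above the floor. The brightest, 1422474_at, had signals of 407 and 485.5 in GFP-positive and GFP-negative cells, a 1.19-fold difference. The next, 1442700_at, gave 265 and 403, or 1.52-fold lower, and 1422473_at gave 132 and 160.5, or 1.21-fold lower. The mean over these probe sets was −0.38 log2 with an SD of 0.19 (n = 3 probe sets of 1 pair of arrays, which are not replicates). The other Pde4b probe sets, 3 in number, had signals of at most 18.7 on either array. Pde4a, the remaining family 4 member, had signals of 35.0 and 64.6, both under the floor, so that no fold is given. The GFP-negative signal of Pde4a lay just under the limit of 65.59.

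Pde7a, the rolipram-insensitive phosphodiesterase of T cells, was measured by 7 probe sets, which did not all point the same way. Its brightest probe set, 1438041_at, had signals of 586 and 734 and was 1.25-fold lower in GFP-positive cells. The probe set 1458218_s_at gave 385 and 658, or 1.71-fold lower, and 1439484_at gave 122 and 128, a difference of −0.07 log2. In contrast, 1423314_s_at gave 191 and 156, or 1.23-fold higher in GFP-positive cells. The mean of these 4 was −0.22 log2 with an SD of 0.45, so the spread between probe sets exceeded the mean. The other 3 were under the floor on both arrays, with signals between 32.9 and 50.8. Over the 5 phosphodiesterase genes together, 8 of the 9 probe sets above the floor on both arrays were lower in GFP-positive cells, where 52.4% of all such probe sets were.

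Adcy7, the cyclase of haematopoietic cells that responds to G protein subunits and protein kinase C, was lower on each of its 3 probe sets. The brightest, 1456307_s_at, had signals of 938 and 1201, or 1.28-fold lower. Signals of 1450065_at were 95.1 and 129, or 1.36-fold lower, and those of 1420970_at were 64.8 and 120, or at least 1.84-fold lower with the GFP-positive signal under the floor. The 2 probe sets above the floor on both arrays gave a mean of −0.40 log2 with an SD of 0.06. Among the members, the cyclase gene Adcy7 therefore lay on the same side as the measured phosphodiesterase genes. The other cyclases and phosphodiesterases given below went both ways.

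Protein kinase A carries out most effects of cAMP. Prkar1a, which encodes the type I alpha regulatory subunit that holds the kinase inactive without cAMP, had signals of 3234 and 3857.5 on 1425550_a_at and of 868.5 and 1133 on 1452032_at, 1.19-fold and 1.30-fold lower in GFP-positive cells. A further probe set, 1447635_at, went the other way with signals of 96.3 and 39.9, or at least 1.47-fold higher. Prkacb, which encodes the beta catalytic subunit, had signals of 633.5 and 809 on 1420611_at, 1.28-fold lower, and its other probe sets were under the floor, with signals of at most 56.5. By their brightest probe sets, Prkar1a and Prkacb thus differed in the same direction, by −0.25 and −0.35 log2. With all probe sets averaged these differences were −0.03 and −0.12 log2. Other subunit genes, among them the catalytic Prkaca, are given below and did not all go this way.

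Crem and Creb1 encode factors that bind cAMP response elements, and a promoter inside Crem gives the inducible repressor ICER. Crem had signals of 198 and 146 in GFP-positive and GFP-negative cells on 1418322_at, 1.36-fold higher, and of 119 and 57.5 on 1449037_at, at least 1.81-fold higher with the GFP-negative signal under the floor. The other 2 Crem probe sets were under the floor on both arrays and had lower signals in GFP-positive cells, 9.2 and 51.6 on 1430847_a_at and 2.1 and 23.0 on 1430598_at. At 0.44 log2, the Crem difference was just under 1 yardstick standard deviation for its signal, at 0.98. The annotation does not say which probe sets hold the ICER transcripts.

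Creb1 encodes the activator CREB, and its probe sets went both ways. The brightest, 1452901_at, gave 596 and 532, or 1.12-fold higher in GFP-positive cells, and 1428755_at gave 658 and 418, or 1.57-fold higher. By contrast, 1452529_a_at gave 77.8 and 112, or 1.44-fold lower, and 1421582_a_at gave 31.3 and 117, or at least 1.79-fold lower with the GFP-positive signal under the floor. Signals on 1423402_at were 173.2 and 173.8. The mean of the 4 probe sets above the floor on both arrays was 0.07 log2 with an SD of 0.49, and the difference for the gene became −0.09 log2 when all its probe sets were averaged. No direction can be given for Creb1 as a whole.

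**Figure D2:**
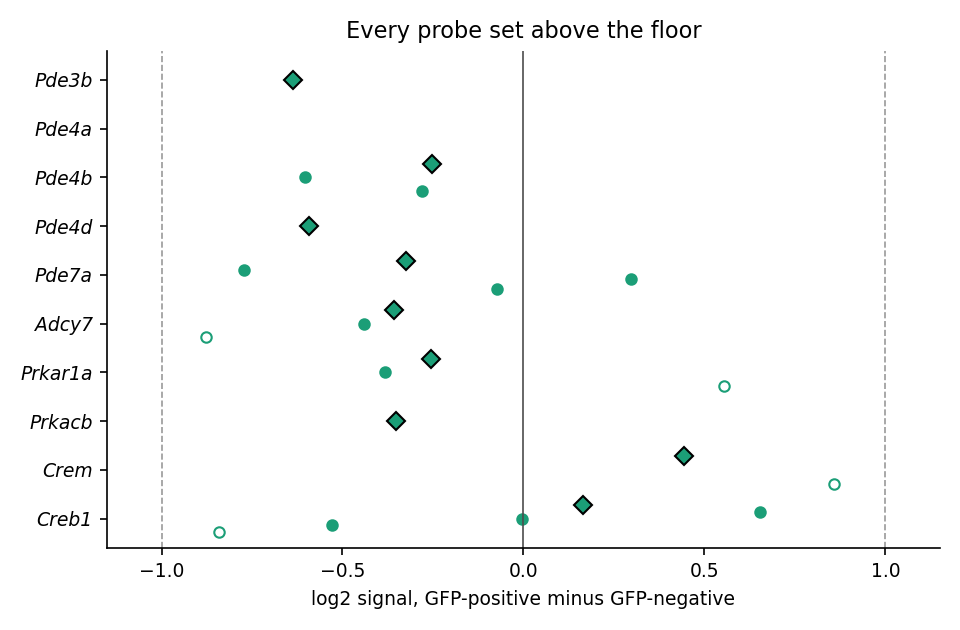
Log2 difference between the GFP-positive and GFP-negative arrays for the 23 probe sets of the members with at least 1 signal over the floor, by gene; diamonds are the brightest probe set of a gene, open circles are bounds with 1 signal under the floor, and dashed lines mark 2-fold. Pde4b and Adcy7 points all lie left of zero, Pde7a and Creb1 points lie on both sides, and no point passes 2-fold.

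Agreement between probe sets was read against all genes. Of the 23 member probe sets with a signal above the floor, 17 were lower and 6 higher in GFP-positive cells, against 49.3% lower among all 16864 such probe sets. None was past 2-fold, against 3.53% of all, and 6 were at least 1.5-fold lower (8.06% of all) and 2 at least 1.5-fold higher (9.66% of all). More than 1 probe set was above the floor on both arrays for 5 members. In 3 of them, Pde4b, Adcy7 and Prkar1a, all were lower, a pattern shown by 24.4% of 3108 genes with that many probe sets, and in 2, Pde7a and Creb1, they went both ways, as in 54.9% of those genes.

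**Figure D3:**
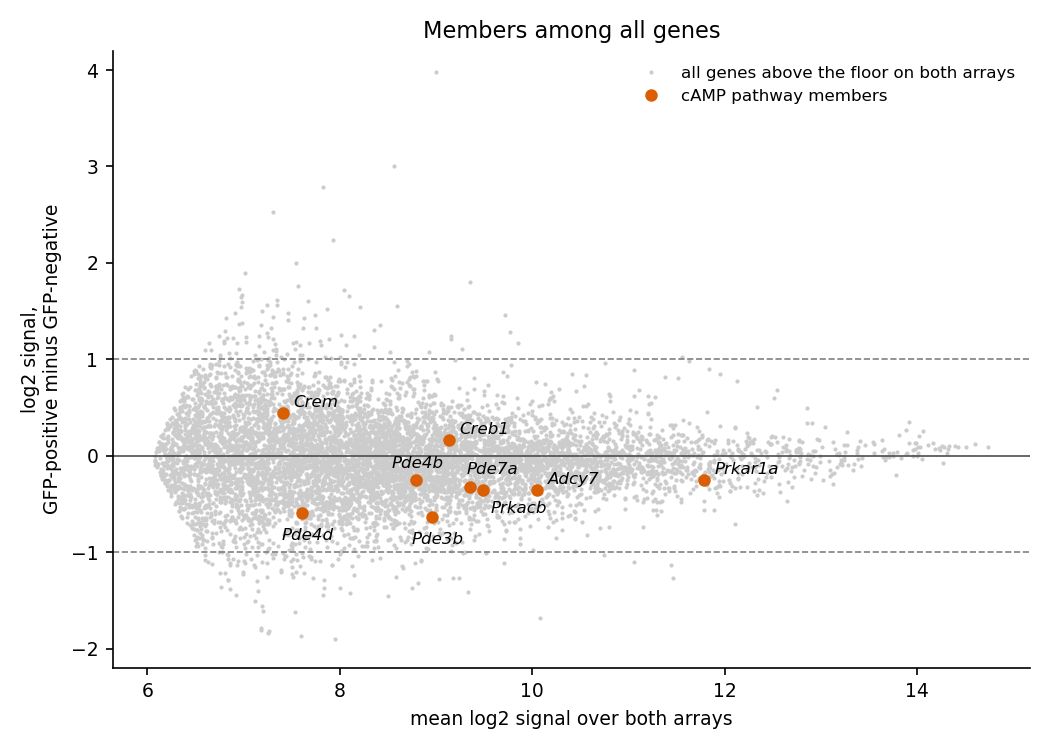
Log2 difference against mean log2 signal for the 8075 genes detected on both arrays (grey) with the 9 measured members in orange; dashed lines mark 2-fold. Members lie within the cloud of all genes, 7 below zero and Crem and Creb1 above it, the latter turning negative with averaged probe sets.

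The rest of the pathway was described from 7 lists of 86 further genes, of which 78 had a probe set and 52 were above the floor. In GFP-positive cells 26 of the 52 had higher and 26 lower signals, the median difference was −0.01 log2, and 1 was past 2-fold by its brightest probe set. Less bright probe sets of Prkar2a, Ezr, Atf2 and Akap9 also passed 2-fold and are given below. The remaining phosphodiesterases were mostly not detected: 3 of 12 were above the floor by their brightest probe set, 2 lower and 1 higher. A less bright probe set of Pde10a passed the floor in GFP-positive cells, with signals of 88.6 and 7.3, or at least 1.35-fold higher. Pde2a, which cGMP stimulates, had signals of 408 and 710.5, or 1.74-fold lower in GFP-positive cells, and a second probe set gave 78.3 and 139, or 1.78-fold lower. Pde1b, which calcium and calmodulin activate, had signals of 210 and 344, or 1.64-fold lower. Pde8a went the other way with signals of 123 and 95.4, or 1.29-fold higher, while its second probe set gave 70.9 and 73.8, a difference of −0.06 log2.

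Among other cyclases and G protein alpha subunits, 5 of 8 genes above the floor had lower and 3 higher signals, and the median of −0.09 log2 was 0.11 without a floor. Adcy6, a cyclase that calcium inhibits, had signals of 89.7 and 220, or 2.46-fold lower, and was the pathway gene past 2-fold by its brightest probe set. With the floor doubled its difference was −0.75 log2, short of 2-fold. Adcy3 had signals of 165 and 137, or 1.20-fold higher. Gnas, which encodes the stimulatory subunit, differed by −0.15 log2 (2954 and 3275), and Gnai3, which encodes an inhibitory subunit, by −0.23 log2 (2565 and 2998). Adcy3, Gnas and Gnai3 were named after their values were seen.

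Of 11 listed receptors that raise cAMP, 7 were analysed here and 6 were above the floor, 3 higher and 3 lower, with a median of −0.08 log2 that was 0.32 with the floor doubled. Vipr1, the receptor for vasoactive intestinal peptide, had signals of 80.7 and 152, or 1.88-fold lower in GFP-positive cells. Adcyap1r1, the receptor for the related peptide PACAP, had signals of 62.3 and 120.0, or at least 1.83-fold lower. Vipr1 differed by −0.21 log2 with the floor doubled and by −0.46 with its probe sets averaged, and Adcyap1r1 by −0.29 with its probe sets averaged. The remaining lower gene, Hrh2, had signals of 92.2 and 129, or 1.40-fold lower. The 3 higher genes all encode prostaglandin receptors, and they and Hrh2 were named after their values were seen. Ptger2 had signals of 230 and 146, or 1.57-fold higher, Ptger4 of 2313 and 1854, or 1.25-fold higher, and Ptgir of 106 and 44.4, or at least 1.61-fold higher. With its probe sets averaged Ptger4 differed by 0.16 log2.

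Other protein kinase A genes above the floor by their brightest probe set were 3 of 7, 1 higher and 2 lower, with a median of −0.02 log2 that turned to 0.0045 after loess. Prkaca, which encodes the alpha catalytic subunit, had signals of 152 and 111, or 1.38-fold higher in GFP-positive cells, while its second probe set gave 68.2 and 70.0. The regulatory subunit gene Prkar2a had signals of 277 and 281 on its brightest probe set, and its −0.02 log2 is the list median. A less bright Prkar2a probe set gave 128 and 288, or 2.25-fold lower, so the probe sets of this gene differed in size. Prkar2a was named after its values were seen. A less bright probe set of Prkar1b, a type I beta regulatory subunit gene, passed the floor in GFP-positive cells with signals of 91.1 against 7.4, a difference of at least 1.39-fold. Pkig, which encodes an inhibitor of the kinase, had signals of 37.9 and 69.4, or at least 1.06-fold lower, and was higher (0.14 log2) without the probe sets prone to match several transcripts. Of the anchoring proteins that place the kinase in the cell, 7 of 10 had higher and 3 lower signals, the median being 0.13 log2. Akap12 was 1.64-fold lower (104 and 171) and Akap8l 1.56-fold lower (224 and 349).

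Further CREB family factors, coactivators and SIK kinases were higher in 5 and lower in 7 of 12 genes above the floor, with a median of −0.11 log2. Crebl2, a CREB-like factor, had signals of 123 and 66.3, or 1.86-fold higher in GFP-positive cells, and the coactivator gene Crtc2 of 110 and 43.2, or at least 1.67-fold higher. The lower Crebl2 signal lay just above the floor, and with its probe sets averaged Crebl2 differed by 0.45 log2. Crtc2 rests on a probe set prone to match several transcripts. Both genes fell below the doubled floor. Genes commonly used as CREB targets were higher in 6 and lower in 4 of 10, with a median of 0.17 log2 that became −0.10 without the probe sets prone to match several transcripts. The largest differences among them pointed opposite ways. Ppp1r15a, a stress-induced phosphatase subunit gene, had signals of 299 and 557, or 1.86-fold lower, and the nuclear receptor gene Nr4a2 of 105 and 53.3, or at least 1.60-fold higher, with a further Nr4a2 probe set at least 1.22-fold lower (35.3 and 80.2).

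**Figure D4:**
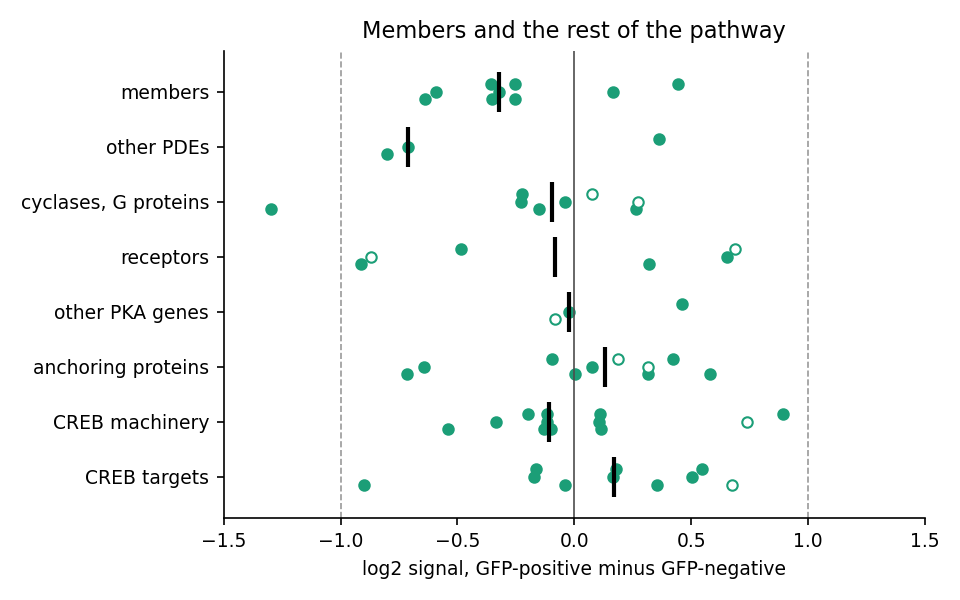
Log2 difference between the GFP-positive and GFP-negative arrays for the members and for 7 lists of other cAMP pathway genes above the floor; points are genes, open points are bounds, black bars are list medians and dashed lines mark 2-fold. The member median lies at −0.32 and those of the other lists between −0.71 (3 phosphodiesterases) and 0.17, where the median of the other protein kinase A genes turns from −0.02 to above zero after loess.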

How the data were processed

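Total RNA of sorted cells was extracted with Trizol, labelled with biotin and hybridised to Affymetrix Mouse Genome 430 arrays, per the labels' protocols. The deposited values are 1 linear intensity per probe set and array; MAS5 is the tool named in the submitters' processing notes. The sources used here state no software version, background setting or detection call. The arrays had been scaled before deposit, since their 2% trimmed means were both 150.0, and nothing further was scaled. Of 45101 probe sets, 34958 had 1 gene symbol, 932 several and 9211 none, and the 64 controls and probe sets without exactly 1 symbol were left out. Gene identifiers matched the reference table for 34754 probe sets, including all 36 of the members, and no symbol changed.

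The floor, 65.59, was the 90th percentile of 119 probe sets of 65 tissue-restricted genes out of 70 listed, and 14 of these genes passed it by their brightest probe set. A gene was represented by its brightest probe set (mean log2 signal), and it entered with at least 1 signal above the floor. Pathway genes were named if past 2-fold (at most 4 per list), otherwise as the 2 largest differences of a list. Members and lists were chosen with earlier results of these data known. Alternatives were a doubled floor, no floor, quantile normalization, loess, averaged probe sets and the removal of probe sets that can match several transcripts. Values were computed in Python 3.11.15 with pandas 2.3.3 and statsmodels 0.14.6. The steps were run on simulated data whose changes were larger than those of the members, at signals well above the floor and with little noise. That run cannot tell how well small differences or signals near the floor are recovered. The number of arrays, 2, limits the precision.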

Additional observations from a re-analysis of the deposited data

How the results depend on the processing

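No paired analysis was possible because each group holds 1 array, and for the same reason no replicate could be left out. Crem and the 7 lower members kept their direction under all 6 alternatives, several of which could hardly change it. The doubled floor and no floor altered none of their values, as their brightest signals exceed both limits. Removal of probe sets that can match several transcripts altered only Adcy7 among them, to −0.44 log2. Creb1 changed sign, to −0.09 log2, when its probe sets were averaged, which left 1 of 9 members higher. Pde4a, under the floor, gave −0.88 log2 without one and −0.11 after quantile normalization. The member median ranged from −0.34 without a floor to −0.12 with averaged probe sets. Without a floor 11 of 36 member probe sets passed 2-fold, at signals treated elsewhere as background. The share of all probe sets past 2-fold without a floor was not computed, so this count cannot be read against it. At 1.5-fold, added after seeing the data, 2 member genes were past the limit, against 16.1% of all genes. So were 8 member probe sets, against 8.06% of all probe sets lower and 9.66% higher. The median of the other phosphodiesterases was 0.28 log2 without a floor, −0.23 with averaged probe sets and −0.18 once the probe sets prone to match several transcripts, those of Pde2a among them, were left out. The receptor median was 0.32 both with the doubled floor, which leaves 3 genes, and without a floor. The Rgs3 difference was 0.43 after quantile normalization, where another probe set became the brightest. No alternative moved the median of all genes by more than 0.04 log2.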

Other observations

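Genes that end signalling of G protein-coupled receptors were described from a list added after the data were seen. It holds receptor kinases, arrestins and RGS proteins, which speed up the inactivation of G protein alpha subunits. Of 14 listed genes, 12 had a probe set and 10 were above the floor, 5 higher and 5 lower in GFP-positive cells, with a median of −0.04 log2. Rgs1, an RGS gene of activated lymphocytes, had signals of 5312 and 2950.5, or 1.80-fold higher. Rgs3 had signals of 84.3 and 258, or 3.06-fold lower, but a second probe set of Rgs3 gave 173 and 125, or 1.38-fold higher. Grk6, a receptor kinase gene, had signals of 3684 and 4431.5, or 1.20-fold lower, and the arrestin gene Arrb2 of 1128 and 941, or 1.20-fold higher.

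Probe sets of Rgs2, an RGS gene that is also on the list of CREB targets, pointed opposite ways. The brightest gave signals of 769 and 542.1, or 1.42-fold higher in GFP-positive cells, whereas 2 others gave 433 and 542.4, or 1.25-fold lower, and 348 and 445, or 1.28-fold lower. Probe sets of Atf2, a factor related to CREB, also differed in size and direction. Its brightest gave 495 and 530, or 1.07-fold lower, another gave 169 and 343, or 2.03-fold lower, and the next gave 56.4 and 132, or at least 2.02-fold lower. A further probe set went the other way with 107 and 59.6, or at least 1.64-fold higher. For Akap9, a large anchoring protein gene, all 4 probe sets above the floor on both arrays were higher in GFP-positive cells, from 0.0041 log2 (318 and 317) to 2.05-fold (420 and 205). Ezr, also on the list of anchoring proteins, had signals of 1590 and 1510 on its brightest probe set, or 1.05-fold higher. Another Ezr probe set, of the kind prone to match several transcripts, gave 436 and 133, or 3.28-fold higher. These genes were named after their values were seen.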
